A study of Mus musculus with 45 samples.

Results

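The *Hoxa* genes *Hoxa2*, *Hoxa3*, *Hoxa4*, *Hoxa5*, *Hoxa6*, *Hoxa7*, *Hoxa9* and *Hoxa10* were taken by symbol from the deposited expression tables. They are 8 of the 33924 genes that each table lists, and all 8 varied in both tables. The study asked what the long non-coding RNA gene *5430416N02Rik* does in mouse embryonic stem cells (ESCs) of the D3 line, which is of strain 129. In ΔPG cells a PGK-puro cassette takes the place of both its promoter and its gene body. In ΔG cells a GFP-IRES-Puro cassette takes the place of the gene body alone. Heterozygous (het) cells carry 1 deleted allele and homozygous (hom) cells carry 2. Every group therefore carries a deletion, and no wild-type RNA-seq sample was among the samples used here. Cells of each genotype were treated with retinoic acid (RA, 2 µM) or with DMSO, the solvent control (the ES state), for 48 h. This gives 8 groups of 3 biological replicates, or 24 RNA-seq samples, in 1 table of 12 ΔPG and 1 table of 12 ΔG samples. The labels do not say which targeted clone a sample came from, so clone and genotype cannot be told apart. The base growth medium contains leukemia inhibitory factor (LIF), which sustains pluripotency, and the cells were grown without feeder cells.

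*Hox* genes encode homeodomain transcription factors that give cells their position along the head-to-tail axis. Genes at the 3′ end of a cluster are activated first and in the head and hindbrain region, and those at the 5′ end later and more posteriorly. RA enters the nucleus, binds RAR/RXR receptors on DNA and is a classical activator of 3′ *Hox* genes in ESCs. In undifferentiated ESCs the clusters are held under Polycomb repression.

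The 8 genes lie on the minus strand of mouse chromosome 6, from *Hoxa2* (NCBIM37 chr6:52112350-52115412) to *Hoxa10* (NCBIM37 chr6:52181196-52190853). *Hoxa5* (NCBIM37 chr6:52151753-52154586), the gene with the largest response below, has 1 annotated transcript of 1877 exonic bases. Promoters of 7 of the 8 genes, 250 bases before to 50 bases after the transcription start, were matched in RefSeq (GRCm38.p6). *Hoxa4* was not matched. The promoters of *Hoxa2* and *Hoxa5* are shown because results by genotype turn on these genes, and those of *Hoxa3* and *Hoxa10* because they also hold a motif that was searched for. Each is written 5′ to 3′ on the minus strand, and capitals mark the motif matches. The 4 stretches are at chr6:52164782-52165081 (*Hoxa2*), chr6:52213018-52213317 (*Hoxa3*), chr6:52204538-52204837 (*Hoxa5*) and chr6:52234890-52235189 (*Hoxa10*).

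Hoxa2: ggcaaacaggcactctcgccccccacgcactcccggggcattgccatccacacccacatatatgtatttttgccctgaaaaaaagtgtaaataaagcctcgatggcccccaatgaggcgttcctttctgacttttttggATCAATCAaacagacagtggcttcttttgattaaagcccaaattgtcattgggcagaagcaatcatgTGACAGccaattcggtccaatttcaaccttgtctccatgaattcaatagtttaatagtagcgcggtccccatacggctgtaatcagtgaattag
Hoxa3: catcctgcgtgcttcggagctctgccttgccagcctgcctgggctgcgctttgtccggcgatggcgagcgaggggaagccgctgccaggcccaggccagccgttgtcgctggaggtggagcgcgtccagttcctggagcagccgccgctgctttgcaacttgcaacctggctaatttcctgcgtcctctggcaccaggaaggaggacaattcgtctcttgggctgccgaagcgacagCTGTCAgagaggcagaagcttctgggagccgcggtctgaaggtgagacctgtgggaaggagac
Hoxa5: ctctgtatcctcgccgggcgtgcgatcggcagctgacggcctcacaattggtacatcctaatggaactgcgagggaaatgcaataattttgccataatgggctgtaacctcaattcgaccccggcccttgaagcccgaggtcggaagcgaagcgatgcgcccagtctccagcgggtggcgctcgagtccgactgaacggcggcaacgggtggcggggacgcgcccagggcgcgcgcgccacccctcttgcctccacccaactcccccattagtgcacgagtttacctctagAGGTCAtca
Hoxa10: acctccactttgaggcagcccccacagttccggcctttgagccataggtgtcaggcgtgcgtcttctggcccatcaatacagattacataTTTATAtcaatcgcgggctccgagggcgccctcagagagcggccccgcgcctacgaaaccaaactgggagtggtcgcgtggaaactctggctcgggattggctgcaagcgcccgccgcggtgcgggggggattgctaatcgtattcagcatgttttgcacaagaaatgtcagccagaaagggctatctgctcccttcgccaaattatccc

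The motifs were searched on both strands, and a match is a description of letters and not a binding site. The nuclear receptor half-site AGGTCA was found in the *Hoxa5* promoter, with its first base 42 bases after the start, and in 16.3% of all 32851 RefSeq promoters. The Meis motif TGACAG was found 44 bases before the start of *Hoxa2* and, on the other strand, 13 bases before that of *Hoxa3*, against 19.2% of all promoters. *Hoxa2* also held the Pbx-Hox motif TGATNNAT on the other strand, 111 bases before the start, a motif of 8.85% of all promoters. The TATA box TATAAA was found on the other strand in 1 of the 2 promoters listed for *Hoxa10*, 160 bases before the start, against 13.6%. The Cdx motif TTTATNG was in none of the 8 promoters searched and in 10.9% of all. The RefSeq start of *Hoxa3* lies between the starts of *Hoxa6* and *Hoxa7*.

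Expression is given as regularized log (rlog) values, which are read counts normalized and moved to the log2 scale by the authors. For genes with few reads this transformation shrinks each sample toward the gene's average, which understates the differences of low genes. The ΔPG and ΔG tables were normalized separately, so levels were compared only within a table. The lowest correlation between samples of a group was 0.998 in ΔPG and 0.999 in ΔG, and no columns were identical. *5430416N02Rik* was lower in every hom than in every het sample, with group means of 2.30 (ΔPG) and 2.75 (ΔG) in hom ES against 4.60 and 5.54 in het ES. Of the 8 pluripotency markers, 7 were listed, and all 7 were called lower under RA in each of the 4 cell lines. A gene was called when the Benjamini-Hochberg adjusted p of a two-sided limma fit over all varying genes was under 0.1 and the log2 difference was over 0.5 in size.

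RA raised most of the *Hoxa* genes in each of the 4 cell lines. In ΔPG het cells 7 of 8 were called higher, against 18.0% of the 21979 genes tested. The count was 5 of 8 in ΔPG hom cells (16.5% of all genes), 6 of 8 in ΔG het cells (17.7% of 22048) and 5 of 8 in ΔG hom cells (17.0%). No member was called lower, and all 8 differences were positive in each of the 4 comparisons. The median difference of the 8 was 1.22 in ΔPG het, 0.99 in ΔPG hom, 0.78 in ΔG het and 0.75 in ΔG hom, while the median over all genes tested was between 0.01 and 0.04. *Hoxa3*, *Hoxa5*, *Hoxa7* and *Hoxa9* were called in all 4 comparisons.

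**Figure D1:**
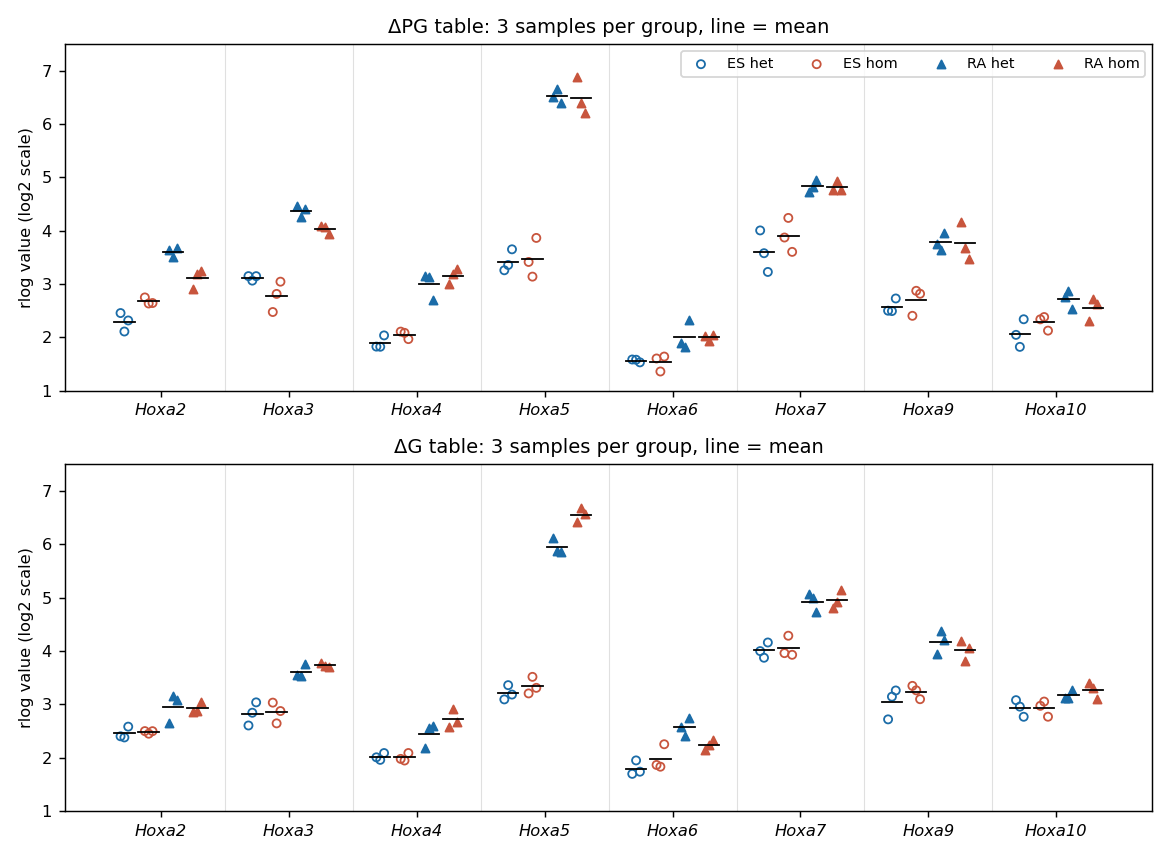
rlog value (y axis, log2 scale) of each *Hoxa* gene in each of the 12 samples of the ΔPG table (top) and of the ΔG table (bottom). Open circles are ES and filled triangles RA samples, blue het and red hom, and lines are means of 3 samples. *Hoxa5* stands apart under RA, between 5.85 and 6.88, while its ES samples lie between 3.09 and 3.86.

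These shares need a closer background, since in the deposited values low genes as a class were higher under RA. The mean rlog of the 8 genes ran from 1.78 to 4.98 in the ΔPG and from 2.15 to 4.76 in the ΔG table. Of the 4246 genes in this range in ΔPG, 39.4% (het) and 39.6% (hom) were called higher under RA. Of the 3515 in ΔG, 40.7% (het) and 39.3% (hom) were. The median difference of these genes was 0.26, 0.29, 0.31 and 0.28 in the same order. After quantile normalization, which gives all samples the same distribution, this median was -0.06, -0.06, -0.06 and -0.08. The shift of the class therefore depends on the scaling. *Hoxa10* and *Hoxa6* had differences near the medians of the deposited values in several lines, whereas that of *Hoxa5* was 2.74 or more.

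*Hoxa5*, which patterns the neck and upper trunk skeleton and the lung, had the largest RA difference of the 8 genes in all 4 lines. Its rlog values in ΔPG het cells were 3.26, 3.36 and 3.65 in ES and 6.51, 6.66 and 6.39 in RA. In ΔPG hom cells they were 3.41, 3.14 and 3.86 in ES and 6.88, 6.40 and 6.20 in RA. ES and RA samples were far apart in both genotypes, and het and hom samples overlapped in both states. The difference was 3.10 (SE 0.127) in het and 3.02 (SE 0.206) in hom ΔPG cells, which is 8.56-fold and 8.12-fold on the rlog scale. The adjusted p values were 7.3e-07 and 2.79e-07. In ΔG cells, *Hoxa5* was at 3.09, 3.36 and 3.18 (het ES), 3.20, 3.51 and 3.31 (hom ES), 6.12, 5.88 and 5.85 (het RA) and 6.42, 6.69 and 6.56 (hom RA). All 3 hom RA samples were above all 3 het RA samples here. The RA difference was 2.74 (SE 0.123, adjusted p = 4.5e-10) in het and 3.21 (SE 0.127, adjusted p = 3.42e-13) in hom ΔG cells. Among all genes tested, *Hoxa5* ranked 90, 94, 225 and 136 from the largest rise in ΔPG het, ΔPG hom, ΔG het and ΔG hom cells.

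Among the 3′ members, *Hoxa2* sets the identity of the second branchial arch and of the hindbrain next to it. In ΔPG het cells its rlog values were 2.46, 2.11 and 2.32 in ES and 3.63, 3.50 and 3.67 in RA. In ΔPG hom cells they were 2.75, 2.63 and 2.64 in ES and 2.91, 3.18 and 3.25 in RA. RA samples were above ES samples in both genotypes, but the distance was wider in het cells. The difference was 1.31 (SE 0.136, adjusted p = 0.00011) in het and 0.44 (SE 0.161, adjusted p = 0.0458) in hom cells, and the latter was under the limit of 0.5. In ΔG cells it was 0.50 (SE 0.154, adjusted p = 0.0149) in het and 0.44 (SE 0.135, adjusted p = 0.0108) in hom cells. The ΔG het call passed the limit by a narrow margin and was lost in 4 of 6 fits that left out a sample. Over all 6 of these fits the difference was 0.41 to 0.66. On the same strand, 267 of the 2423 exonic bases of *Hoxa2* (11.0%) are shared with *Hoxa3*.

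*Hoxa3*, needed for the thymus and the parathyroid glands, was called in all 4 lines. In ΔPG cells it was at 3.15, 3.06 and 3.15 (het ES), 2.48, 2.81 and 3.04 (hom ES), 4.46, 4.26 and 4.40 (het RA) and 4.09, 4.08 and 3.93 (hom RA). Every RA sample was above every ES sample. In each state every hom sample was below every het sample, by as little as 3.04 against 3.06 in ES. The RA difference was 1.25 in both ΔPG genotypes (SE 0.107 in het, 0.176 in hom). It was 0.78 (SE 0.144) in het and 0.88 (SE 0.142) in hom ΔG cells. The *Hoxa3* symbol pools 2 gene models that span chr6:52113358-52163338 in NCBIM37, a stretch that also holds *Hoxa4*, *Hoxa5* and *Hoxa6*, and 24.1% of its exonic bases face genes on the opposite strand. *Hoxa4*, which acts in the neck vertebrae, rose by 1.10 in both ΔPG lines (SE 0.163 and 0.157) and by 0.72 (SE 0.14) in ΔG hom cells. In ΔG het cells its difference was 0.42 (SE 0.142), under the limit. There *Hoxa4* was at 2.00, 1.96 and 2.08 in ES and 2.17, 2.55 and 2.59 in RA, without overlap.

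*Hoxa6* and *Hoxa7*, with *Hoxa5* the central genes of the cluster, pattern the trunk skeleton. *Hoxa7* was called in all 4 lines, with differences of 1.23 (SE 0.195), 0.91 (SE 0.169), 0.92 (SE 0.13) and 0.89 (SE 0.14) in ΔPG het, ΔPG hom, ΔG het and ΔG hom cells. Its samples lay between 3.23 and 4.28 in ES and between 4.72 and 5.14 in RA. *Hoxa7* shares 20.4% of its exonic bases with a gene on the opposite strand, which strand-specific counting is meant to keep apart. *Hoxa6* stayed between 1.36 and 2.75 in all samples. It was called in ΔG het cells only, at 0.78 (SE 0.139, adjusted p = 0.000352). The other 3 differences of *Hoxa6* were 0.44 (ΔPG het), 0.47 (ΔPG hom) and 0.26 (ΔG hom), and in ΔG hom cells ES (1.83 to 2.25) and RA samples (2.15 to 2.33) overlapped.

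The 5′ members differed from each other. *Hoxa9*, which maintains blood progenitors and is activated in many leukemias, was called in all 4 lines, with differences of 1.21 (SE 0.138), 1.07 (SE 0.212), 1.13 (SE 0.164) and 0.79 (SE 0.143) in the order above. Its samples ran from 2.40 to 3.34 in ES and from 3.46 to 4.36 in RA. *Hoxa10*, which patterns the lumbar vertebrae and the uterus, was called in ΔPG het cells only, at 0.65 (SE 0.171, adjusted p = 0.014). In the other lines its difference was 0.27 (ΔPG hom), 0.23 (ΔG het) and 0.33 (ΔG hom), with adjusted p values of 0.236, 0.172 and 0.0658. When all samples were given the same distribution by quantile normalization, these 3 differences became -0.03, -0.11 and -0.01. With that scaling, which lowered the differences of genes at these levels by 0.32 to 0.36, the differences of *Hoxa7* (0.48) and *Hoxa9* (0.36) in ΔG hom cells fell under the limit, and 3 of 8 remained called there. *Hoxa9* shares 198 exonic bases (5.67%) with other genes on its strand.

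An exact permutation test of 3 against 3 samples cannot give a p under 0.1, and it gave 0.1 wherever the samples of the groups did not overlap. RA samples were all above ES samples for 8 genes in ΔPG het cells, where 30.6% of all genes behaved so, and for 8 in ΔG het cells (31.2%). In ΔPG hom (29.7%) and ΔG hom cells (29.2%) this held for 7 genes, and the exact permutation p was 0.3 for *Hoxa10* and *Hoxa6*, respectively.

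Across the cluster, the size of the RA difference did not follow gene order, and *Hoxa5* in the middle exceeded both its neighbors. Among 14 other genes annotated in the cluster, from *Evx1* to 20 kb beyond its 3′ end, 12 varied. Of these 12 genes, 4, 4, 4 and 3 were called higher in ΔPG het, ΔPG hom, ΔG het and ΔG hom cells, and 0 were called lower. The non-coding *Gm15051* rose by 1.58 to 1.77 and *5730596B20Rik*, antisense to exons of *Hoxa3*, by 0.96 to 1.47. The other called genes were the non-coding *2700086A05Rik* and *Gm15050*. *Hoxa11*, *Hoxa13* and *Evx1* at the 5′ end were not called in any line, and the differences of *Hoxa11* were between -0.06 and 0.16. The mean rlog of the 14 genes was only 0.05 to 0.56 per sample, although *Gm15051* was at 4.92 to 5.15 in the RA groups. The rlog step shrinks the differences of low genes, so missing calls here do not show a missing response. Of the 7 genes flanking the cluster, at most 2 were called higher (*Jazf1* and *Tax1bp1*) and at most 1 lower (*Hibadh*) in a line.

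**Figure D2:**
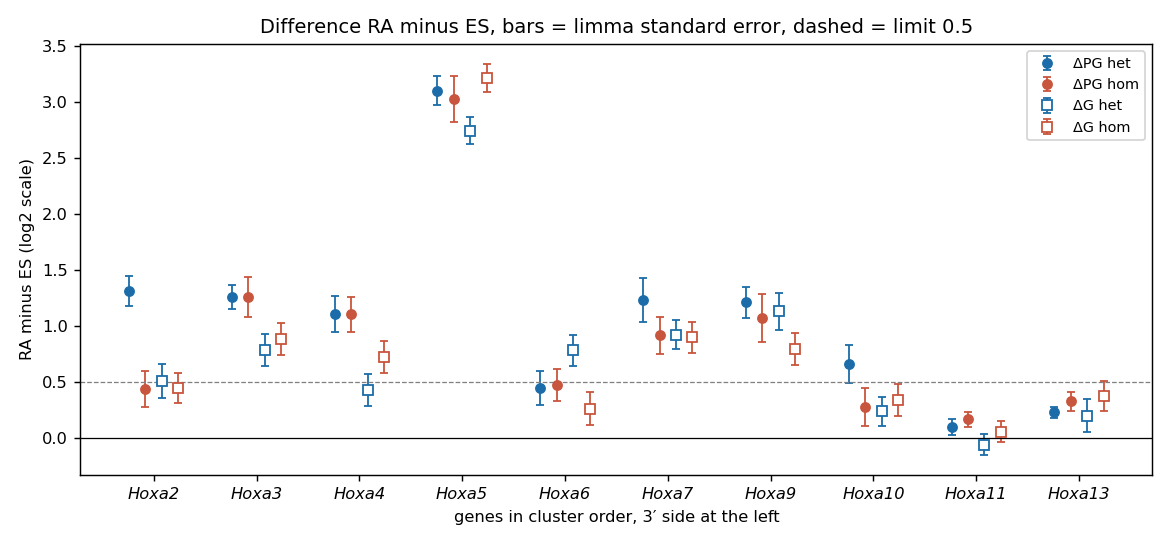
Difference RA minus ES (y axis, log2 scale) of the 8 *Hoxa* genes, *Hoxa11* and *Hoxa13* in cluster order (x axis), in ΔPG (filled circles) and ΔG cells (open squares), het in blue and hom in red. Bars are limma standard errors and the dashed line is the limit of 0.5. *Hoxa5* has the largest difference in each line, 2.74 to 3.21, and *Hoxa11* and *Hoxa13* lie below 0.5 in each line. The rlog step shrinks the differences of low genes, and the levels of *Hoxa11* and *Hoxa13* are not shown.

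Levels of different genes were compared per length, as rlog minus the log2 of exonic length in kb. On this scale *Hoxa5* was the highest of the 8 in RA, at 5.61 (ΔPG het), 5.59 (ΔPG hom), 5.04 (ΔG het) and 5.65 (ΔG hom). *Hoxa7* came next, at 3.31, 3.29, 3.40 and 3.43. In ΔPG het RA cells *Hoxa4* and *Hoxa2* followed (both 2.33), and these neighbors did not differ beyond their spread. Then came *Hoxa9* (1.98), *Hoxa3* (1.60), *Hoxa6* (1.00) and *Hoxa10* (0.78), the last pair again within its spread. In the ES groups *Hoxa5* (2.30 to 2.56) and *Hoxa7* (2.08 to 2.53) were the highest of the 8, and their group means differed by less than the sum of their SDs. The lower ranks depend on the length used. With the longest transcript in place of all exons, 2 of 8 genes kept their rank in ΔPG het, 5 in ΔPG hom, 4 in ΔG het and 4 in ΔG hom RA cells, *Hoxa5* and *Hoxa7* in each.

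The level of each gene moved with the mean of the other 7 over the 12 samples of a table. Pearson's r was highest for *Hoxa5* (0.97 in both tables) and lowest for *Hoxa10* (0.78 in ΔPG, 0.73 in ΔG) and *Hoxa6* (0.84 and 0.76). The ES and RA samples form separate clusters, so these values mostly describe the shared RA difference. The 5 genes with the most similar pattern to the members' mean, by the lower of the r values of both tables among 4144 genes that ranged by at least 1 in each, were *Tagln* (0.996), *Fgfr2* (0.995), *H19* (0.994), *Ecm1* (0.994) and *Peg10* (0.994). *Tagln*, a smooth muscle actin-binding protein, went from 4.27 to 9.38 in ΔPG het cells, and the imprinted RNA *H19* from 8.86 to 14.2.

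The comparison of hom with het cells asks whether losing the remaining *5430416N02Rik* allele changed the *Hoxa* genes. In the ES state no *Hoxa* gene was called in ΔPG or ΔG cells by limma. In ΔPG cells 13.2% of all genes and 12.9% of those in the members' rlog range were called. Of the members 1, *Hoxa2*, had an unadjusted p under 0.05. *Hoxa2* and *Hoxa3* were the members whose het and hom samples did not overlap, as for 39.6% of all genes. In ΔG cells 0.984% of all genes and 1.62% of those in the members' rlog range were called, and 0 members had such a p. The 8 differences were between -0.01 and 0.19 there, and het and hom samples overlapped for all 8 members, while those of 17.8% of all genes did not. The 95% intervals of the 8 differences reached from -0.72 (*Hoxa3*) to 0.84 (*Hoxa7*) in ΔPG and from -0.33 (*Hoxa3*) to 0.56 (*Hoxa9*) in ΔG cells. *Hoxa7* had a ΔPG difference of 0.30 (SE 0.233), and with a trend of the values with GC content removed it was 0.52 and called.

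Under RA, no *Hoxa* gene was called in ΔPG cells, where 0.846% of all genes and 2.26% of those in the members' rlog range were. *Hoxa2* (-0.49, SE 0.152, adjusted p = 0.153) and *Hoxa3* (-0.34, SE 0.125, adjusted p = 0.231) had an unadjusted p under 0.05 and hom samples below all het samples, where 18.8% of all genes did not overlap. The other 6 differences were between -0.17 and 0.16. In ΔG cells 1 of 8 was called, against 2.14% of all genes and 5.41% of those in the members' rlog range. This was *Hoxa5*, higher in hom cells by 0.60 (SE 0.105, 95% interval 0.39 to 0.82, adjusted p = 0.000711). It was called in each of the 6 fits that left out a sample, with differences of 0.54 to 0.69. *Hoxa6* went the other way, with 2.56, 2.40 and 2.75 in het and 2.15, 2.23 and 2.33 in hom RA cells, but its difference of -0.33 (SE 0.15) had an adjusted p of 0.216. In this comparison the samples of 21.8% of all genes did not overlap. In ΔPG cells the *Hoxa5* difference under RA was -0.03 (95% interval -0.37 to 0.31).

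The difference between the RA effects of hom and het cells was itself tested, by an interaction term fitted to the 12 samples of each table. In ΔPG cells 1 of 8 genes was called, against 13.9% of all genes. The RA difference of *Hoxa2* was smaller in hom cells by 0.87 on the log2 scale (SE 0.201, 95% interval -1.30 to -0.44, adjusted p = 0.00494). This joins 2 differences that were not called alone, since hom cells were 0.38 above het cells in ES (adjusted p = 0.0611) and 0.49 below them in RA. In the fits without 1 sample the *Hoxa2* interaction was -0.95 to -0.77 and was always called. With the GC trend removed it was not tested, since that setting kept only genes of a mean rlog of at least 3. The other 7 genes had values of -0.38 to 0.02. In ΔG cells the *Hoxa2* interaction was -0.06 (SE 0.205, 95% interval -0.48 to 0.36). There 0 of 8 genes were called, against 2.38% of all genes, and 2 had an unadjusted p under 0.05. These were *Hoxa5* (0.47, adjusted p = 0.176) and *Hoxa6* (-0.52, adjusted p = 0.199), while the other 6 were between -0.34 and 0.30. The higher *Hoxa5* of ΔG hom cells under RA was therefore not shown to be a larger RA effect.

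**Figure D3:**
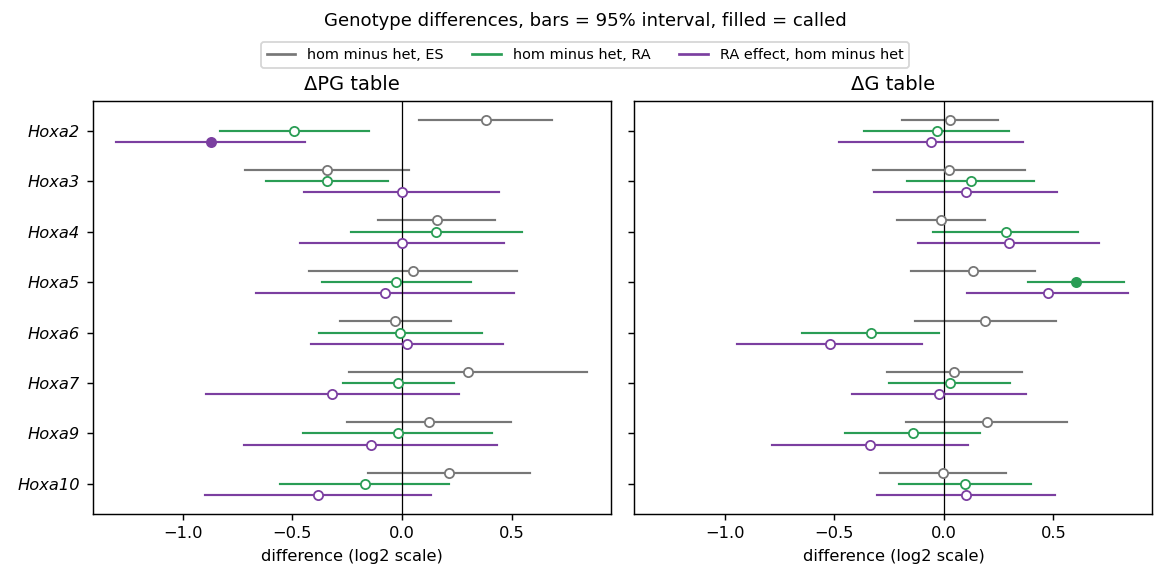
Differences by genotype (x axis, log2 scale) of the 8 *Hoxa* genes in the ΔPG (left) and ΔG table (right): hom minus het in ES (grey), hom minus het in RA (green), and the RA effect in hom minus that in het cells (purple). Bars are 95% intervals and filled points are called. The filled points are the interaction of *Hoxa2* in ΔPG (-0.87) and *Hoxa5* in RA in ΔG cells (0.60).

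Markers of other cell types moved with RA and with genotype. All 8 primitive endoderm markers, such as *Gata6* and *Dab2*, were called higher under RA in each line. Their mean rlog was 6.89 to 6.92 in het and 6.39 to 6.47 in hom ΔPG RA samples, and 7.17 to 7.19 in het and 6.77 to 6.87 in hom ΔG RA samples. Between hom and het cells under RA, 4 of the 8 in ΔPG (*Gata4*, *Sox17*, *Dab2* and *Lama1*) and 3 in ΔG (*Dab2*, *Pdgfra* and *Lama1*) were called lower in hom cells. Of 8 fibroblast markers, 6, 7, 7 and 5 rose under RA in ΔPG het, ΔPG hom, ΔG het and ΔG hom cells, and *Thy1* was called lower in both ΔPG lines (-0.67 in het, -0.53 in hom). The mean rlog of the 8 went from between 2.28 and 2.52 in ES samples to between 4.09 and 4.55 in RA samples. Of 8 neural progenitor markers 6 were listed, and 3 were called higher (*Pax6* and *Nes* among them) and 1, *Tubb3*, lower in each line. Of 8 trophoblast markers 6 varied, and *Gata3*, *Krt7* and *Hand1* were called higher in each line, while *Eomes* was called lower in ΔPG het (-0.74), ΔPG hom (-0.73) and ΔG het cells (-0.83). Of the mesoderm markers that varied (7 in ΔPG, 6 in ΔG), *Hand1* was called higher in each line and 1 or 2 lower (*T* and *Eomes*). *Hand1* and *Eomes* are in both lists. In ΔG RA cells, where *Hoxa5* was higher in hom cells, *Tubb3* (0.99), *Krt7* (0.77) and *Hand1* (0.81) were also called higher in hom cells. The fibroblast marker *Col1a2* (-1.41) was called lower. These were 1 of 6 neural progenitor, 2 of 6 trophoblast, 1 of 6 mesoderm and 1 of 8 fibroblast markers. The rest of these lists was not called there. *Pax6* (-0.40) went the other way from *Tubb3*, and *Col3a1* had group means of 7.20 in het and 7.17 in hom cells. In ΔPG RA cells the fibroblast marker *Col3a1* (-0.67) and the pluripotency marker *Klf4* (-0.61) were called lower in hom cells. They were 1 of 8 and 1 of 7 markers, and *Col1a2* had group means of 7.83 in het and 8.06 in hom cells. In such bulk samples fewer cells of a type and less RNA per cell cannot be told apart, and the part of these markers in the *Hoxa* values was not tested.

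Most genes of the lists that act with Hox proteins or respond to RA were called higher as well. Of 8 RA response genes, 7 were called higher in each line and 1, the homeobox gene *Cdx1*, lower (-3.55 to -2.61). Those that rose include the RA-degrading enzymes *Cyp26a1* (4.57 to 5.88) and *Cyp26b1* (4.19 to 5.32) and the RA-binding protein *Crabp2* (3.70 to 5.25). The 5 Meis and Pbx genes examined, which encode partners of Hox proteins on DNA, were all called higher in each line. The rise was 3.95 to 4.88 for *Meis1* and 2.01 to 2.72 for *Meis2*. Of 6 Polycomb and Trithorax genes 5 were listed, all of Polycomb, and 0 or 1 was called higher and 1 or 2 lower in a line. *Eed*, a core subunit of the Polycomb enzyme that marks silent *Hox* clusters, fell by 1.06, 1.57, 1.79 and 1.77 in ΔPG het, ΔPG hom, ΔG het and ΔG hom cells. *Suz12* of the same enzyme was called lower in all lines but ΔPG het. *Ezh2* was not called in any line (-0.20 to 0.19), while *Rnf2* was called higher in ΔPG het (0.81) and *Ring1* in ΔG het cells (0.61). In ΔPG ES cells *Suz12* (0.82) and *Rnf2* (1.05) were called higher in hom than in het cells.

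The other *Hox* clusters responded as well. Of the *Hoxb*, *Hoxc* and *Hoxd* genes of paralogue groups 2 to 10, 19 varied in both tables, and 15, 17, 16 and 15 were called higher in ΔPG het, ΔPG hom, ΔG het and ΔG hom cells, with 0 lower. *Hoxb2*, the *Hoxb* counterpart of *Hoxa2*, rose by 3.35 to 4.29, and *Hoxb3* by 2.71 to 2.86, against 0.44 to 1.31 for *Hoxa2* and 0.78 to 1.25 for *Hoxa3*. *Hoxb9* rose by 2.34 to 3.01, against 0.79 to 1.21 for *Hoxa9*. In paralogue group 5 the order was the other way, with 2.74 to 3.21 for *Hoxa5*, 1.56 to 1.78 for *Hoxb5* and 1.30 to 2.18 for *Hoxc5*. Group 5 was not the only such case. *Hoxa7* rose by 0.89 to 1.23, against 0.59 to 0.96 for *Hoxb7*, and was the lower of this pair in ΔG het cells only. *Hoxd9* (0.35 to 0.83) rose less than *Hoxa9* in each line. *Hoxb4* (2.24 to 2.38) and *Hoxb6* (2.12 to 2.56) rose more than *Hoxa4* and *Hoxa6* in each line. These genes are set side by side and their difference was not tested. No paralogue was called between hom and het cells in either state, and *Hoxb9* alone had a called interaction (ΔG, 0.61, adjusted p = 0.051).

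**Figure D4:**
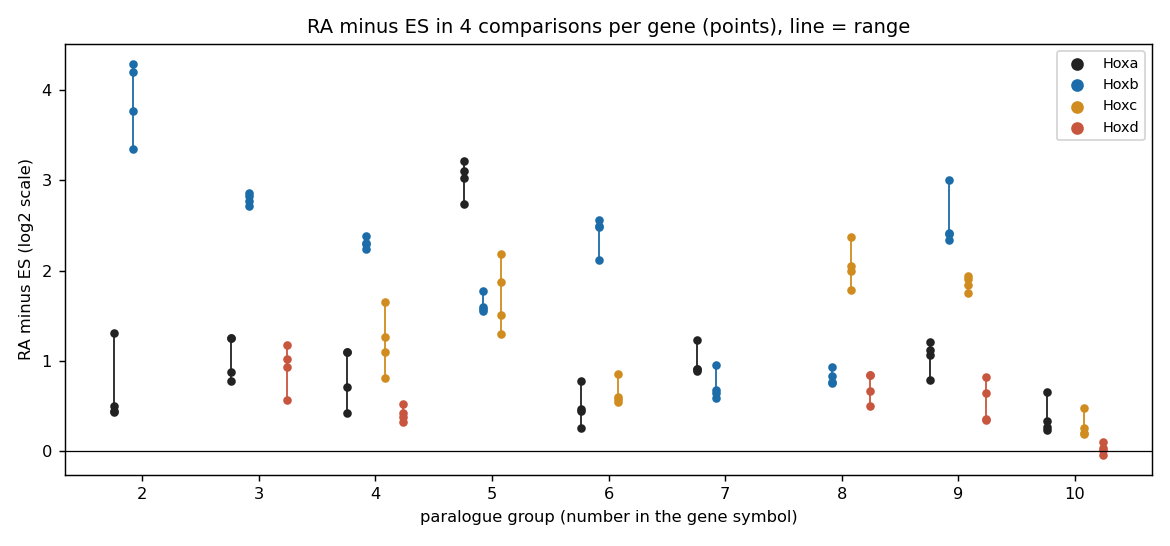
Difference RA minus ES (y axis, log2 scale) by paralogue group (x axis) for genes of the *Hoxa* (black), *Hoxb* (blue), *Hoxc* (orange) and *Hoxd* (red) clusters. Points are the 4 cell lines and lines their range. *Hoxa5* lies above the other genes of group 5, and *Hoxb2* reaches 4.29.

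The 4C-seq data list chromatin regions that the authors called as ligated to the *5430416N02Rik* promoter, in 2 replicates of ESCs. A region of each replicate held all 8 *Hoxa* genes whole. It was 3.5 Mb long in replicate 1 (chr6:50628323-54128186) and 4.251 Mb in replicate 2 (chr6:50710690-54962018), so it was far larger than the cluster. For the mapping the methods name NCBI37/mm9, but 9 of the 680 regions end beyond their NCBIM37 chromosome, so the build of these positions was not settled. The genes were inside with their NCBIM37 and with their GRCm38 positions. This was a common outcome, since 33.5% of the 49554 RefSeq genes (GRCm38) on chromosomes with regions, and 41.8% of the 2863 on chromosome 6, lay whole in a region of both replicates. The regions carry no score, so no strength of contact was compared.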

How the data were processed

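RNA-seq libraries (TruSeq Stranded Total RNA with Ribo-Zero) were sequenced as paired-end reads. The authors aligned them to NCBI37/mm9 with TopHat2 2.1.0, removed duplicates with Picard, counted reads per gene name on the reverse strand with HTSeq 0.6.0 and put the counts through normalization and a regularized log transformation in DESeq2 1.14.1. The deposited values are rlog values on the log2 scale. Whether that step knew the groups is not given in the sources used here. The values carry no counts, so the depth per sample is unknown. The deposited 4C-seq regions carry positions only.

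Samples were grouped as the labels give them. limma 3.58.1 in R 4.3.3 (lmFit, eBayes with a variance trend) was fitted per comparison to 6 samples, and for the interaction to 12, over all genes that vary (21979 in ΔPG, 22048 in ΔG). p values were adjusted by Benjamini-Hochberg. The fit was tested on simulated data. Since clone and culture are not given for each sample, p values measure only the spread between these samples. By rule, the 8 members were described in every comparison, those with no call partly by their range, and of each other list at most 3 genes were taken, those with the largest mean RA difference in size. All further genes named were chosen with their values known. The members, lists, motifs and tests were chosen with earlier results of these data known. Exon lengths came from GENCODE on NCBIM37. The RIP-seq and Capture-C samples of the series were not used. Python 3.11.15 was used for promoters and regions. Some genes of the lists are not reported here.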

Additional observations from a re-analysis of the deposited data

Results flagged for a closer look

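*Hoxa2* in ΔPG cells is listed because its RA effect differed between genotypes. As 1 of 8 members it is no larger a share than the 13.9% of all genes called for this interaction. The interaction was -0.87 on the log2 scale in a limma fit over 12 samples, with an adjusted p of 0.00494. The hom minus het difference was 0.38 in ES and -0.49 in RA, and all 3 hom samples lay above the het samples in ES and below them in RA. Of all genes, 39.6% in ES and 18.8% in RA had het and hom samples that did not overlap in either direction. These opposite directions were each not called alone, and their difference is what the interaction tested. With genes of a mean rlog of at least 3 only, *Hoxa2* was not among the genes tested. The GC trend was removed over the same genes, so the *Hoxa2* interaction was not checked in that setting. Over all genes that setting gave 1122 calls in place of 3056 for this interaction.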

How the results depend on the processing

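Over all settings other than leaving out a sample, 690 values for single genes kept direction and side of the limits. Of the remaining values 7 lost a call, 9 gained one and 8 changed sign. When a sample was left out, 509 values kept both, 4 lost a call, 6 gained one and 57 changed sign. RA minus ES counts changed as follows. Without a limit on the difference, 8, 7, 7 and 7 members were called in ΔPG het, ΔPG hom, ΔG het and ΔG hom cells. This added *Hoxa6* in ΔPG het, *Hoxa2* and *Hoxa6* in ΔPG hom, *Hoxa4* in ΔG het and *Hoxa2* and *Hoxa10* in ΔG hom cells. With only genes of a mean rlog of at least 3 kept, 4 of the 4 members tested were called in ΔPG het cells. The same held with the GC trend removed over these genes. This mean includes the RA samples, and *Hoxa9* passed through them, with group means of 2.57 and 2.70 in ES and 3.78 and 3.76 in RA. The filter thus favors genes that rose, and these calls are no independent support. Over all genes, calls in either direction numbered 5887 with the filter and 5390 with the GC trend removed, in place of 6947. The ΔPG interaction count was 0 with that filter because *Hoxa2* was not tested. Quantile normalization left 3 in ΔG hom cells and made *Hoxa10* -0.029 (ΔPG hom), -0.11 (ΔG het) and -0.014 (ΔG hom). It also ended the calls of *Hoxa10* in ΔPG het (0.37) and of *Hoxa2* (0.22) and *Hoxa3* (0.41) in ΔG het cells. *Hoxa2* in ΔG het cells was also lost at an adjusted p of 0.05 with a fold of 1.5 (0.50) and with medians set equal (0.41). Hom minus het in ΔPG ES had 1 call without a limit on the difference (*Hoxa2*) and 1 with the GC trend removed (*Hoxa7*, 0.52), where the *Hoxa7* interaction (-0.53) was also called. Small uncalled differences changed sign. In ΔG ES, *Hoxa4* was 0.0021 and *Hoxa10* 0.023 with quantile normalization, and *Hoxa10* was 0.0063 with medians set equal and 0.0036 with the GC trend removed. *Hoxa6* in ΔPG RA was 0.0014 with medians set equal. With the longest transcript, 3 of 8 members kept their length-adjusted rank under RA in ΔPG and 3 in ΔG cells when het and hom were averaged. The cause of these changes was not tested.

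Leaving out 1 sample gave 7 to 8 called members in ΔPG het, 5 to 6 in ΔPG hom, 5 to 7 in ΔG het and 5 in ΔG hom cells, and the same counts as above between genotypes and for the interactions. *Hoxa2* in ΔG het cells lost its call without ES replicate 1 or 2 or RA replicate 2 or 3. *Hoxa6* gained one in ΔPG het without RA replicate 1 or 2 and in ΔPG hom without ES replicate 1 or 3. *Hoxa2* in ΔPG hom without RA replicate 1 and *Hoxa4* in ΔG het without RA replicate 1 did too. Uncalled genotype differences near 0 changed sign. In ΔPG ES the ranges were -0.15 to 0.22 (*Hoxa5*), -0.083 to 0.057 (*Hoxa6*). In ΔG ES the ranges were -0.087 to 0.078 (*Hoxa10*), -0.0097 to 0.091 (*Hoxa2*), -0.090 to 0.13 (*Hoxa3*), -0.056 to 0.021 (*Hoxa4*), -0.066 to 0.12 (*Hoxa7*). In ΔPG RA the ranges were -0.22 to 0.12 (*Hoxa5*), -0.10 to 0.15 (*Hoxa6*), -0.071 to 0.043 (*Hoxa7*), -0.22 to 0.13 (*Hoxa9*). In ΔG RA the ranges were -0.19 to 0.066 (*Hoxa2*), -0.076 to 0.10 (*Hoxa7*). In the ΔPG interaction the ranges were -0.15 to 0.13 (*Hoxa3*), -0.15 to 0.078 (*Hoxa4*), -0.27 to 0.12 (*Hoxa5*), -0.072 to 0.18 (*Hoxa6*), -0.34 to 0.0086 (*Hoxa9*). In the ΔG interaction the ranges were -0.22 to 0.038 (*Hoxa2*), -0.0054 to 0.21 (*Hoxa3*), -0.12 to 0.092 (*Hoxa7*).

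Same-numbered samples of compared groups deviated together with r of -0.03 to 0.09, so no clear pairing by number was seen. For RA minus ES in ΔPG hom cells and hom minus het in ΔPG ES cells, 2 of 3 samples matched their own number best. Whether same-numbered samples shared a culture is not given. With the replicate number as a replicate block, the counts were 7, 5, 6 and 5 for RA minus ES, 0, 0, 0 and 1 for hom minus het and 1 and 0 for the interactions, as without it. Over all genes the block gave 44 calls in place of 217 (hom minus het, ΔG ES) and 112 in place of 186 (ΔPG RA). The limits of 0.05 and 1.5 gave 117 (ΔG ES), 275 in place of 471 (ΔG RA) and 268 in place of 524 (ΔG interaction). Removing the GC trend gave 865 in place of 2893 (ΔPG ES) and 1122 in place of 3056 (ΔPG interaction). Without a limit on the difference there were 12607, 11424, 12012 and 11772 calls for RA minus ES in place of 6947, 6116, 6499 and 6434. The same setting gave 7926, 1152, 1006 and 2433 for hom minus het (ES in ΔPG, ES in ΔG, then RA in each), and 6387 and 1164 for the interactions. Depth per sample is unknown, which limits what low genes such as *Hoxa6* can show.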
